A study of Homo sapiens with 4 samples.

Results

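G2/M Epi-like cells are the epiblast-like cells of 120 h human blastoids that carried the largest share of transcripts from genes of late G2 and mitosis. They were chosen by values of the same libraries. A barcode was kept with 1 hashtag at 80% or more of its hashtag UMIs (a UMI is a molecular identifier that stands for 1 captured transcript), at most 15% mitochondrial UMIs, and at least 7000 UMIs in run 1 or 5000 in run 2. It was called Epi-like where its UMIs of the trophectoderm genes KRT8, KRT18, GATA3 and CLDN4 did not exceed those of the epiblast genes POU5F1, DPPA5, DPPA4, L1TD1 and TDGF1. The members were the top 20% of Epi-like cells within each run by the summed share of UMIs of PLK1, HMMR, UBE2C, TOP2A, CENPF, AURKA, TPX2 and DEPDC1. This gave 2090 G2/M Epi-like cells (274 in run 1 and 1816 in run 2) of 10445 Epi-like cells, out of 10902 blastoid barcodes past the filters and 24564 barcodes in the series. The remaining 8355 cells are called other Epi-like cells. No measurement of DNA content was used, so the name describes transcripts.

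The cells came from H9, an established human embryonic stem cell line held in the naive state, which was freed of mouse feeder cells and aggregated in microwells to form blastoids, stem cell models of the blastocyst. Treated cultures had 4 mM dimethyl 2-oxoglutarate (dm-αKG), a membrane-permeable ester of the metabolite α-ketoglutarate, during the first 40 h and none for the next 80 h, and control cultures had 0 mM. All cultures otherwise went through the same media, with a ROCK inhibitor during aggregation, then inhibitors of MEK and of TGFβ receptors with LIF and lysophosphatidic acid, and in the end lysophosphatidic acid with the ROCK inhibitor. Blastoids with a single cavity were picked by mouth pipette, and the study states that fragile trophectoderm cells were lost out of proportion at dissociation. Each arm is 1 hashtagged culture of this 1 line in 1 droplet capture run, so there were 2 arms at 4 mM and 2 at 0 mM. Cells of 1 arm share their culture and are not replicates, so all tests compare sums of UMIs per arm.

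The runs held 9431 and 15133 barcodes with medians of 5951 and 13314 UMIs. Of hashtagged blastoid barcodes, the filters kept 77.7% at 4 mM and 48.0% at 0 mM in run 1, against 85.4% at 4 mM and 76.7% at 0 mM in run 2. Run 1 also held cells of 40 h aggregates, which were not analysed here. Hashtag UMIs were lower at 4 mM than at 0 mM in run 2, with medians of 103 and 240.5 per G2/M Epi-like cell. The runs shared 28 barcode sequences, of which 3 were Epi-like in both.

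Before a cell divides, cyclin B with the kinase CDK1 drives entry into mitosis, and aurora and polo-like kinases, kinesins and the kinetochore build the spindle and attach chromosomes to it. The anaphase-promoting complex then ends mitosis by marking cyclin B and securin for degradation. Many of these genes are transcribed only late in the cycle, when the MuvB complex with B-MYB and FOXM1 acts at their promoters. Pluripotent stem cells are known for a short G1 phase, and most of them are in S or G2/M phase at any time.

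The 8 genes that chose the cells are given as a description. PLK1, the polo-like kinase that drives centrosome maturation and mitotic exit, was at 101, 101, 130 and 128 CPM (UMIs of the gene per 1e6 summed UMIs of the arm) in G2/M Epi-like cells of run 1 at 4 mM, run 1 at 0 mM, run 2 at 4 mM and run 2 at 0 mM. In other Epi-like cells of the same arms PLK1 was at 16.98, 19.3, 24.5 and 27.0 CPM. UBE2C, the ubiquitin-conjugating enzyme of the anaphase-promoting complex, was the most abundant of the 8, at 469 to 555 CPM in G2/M Epi-like cells and 105 to 139 CPM in other Epi-like cells. TOP2A, which untangles sister DNA, was at 229 to 344 CPM in G2/M Epi-like cells, against 48.8 to 69.9 CPM in other Epi-like cells. CENPF, a kinetochore protein, was at 330 to 452 CPM in G2/M Epi-like cells, against 95.6 to 131 CPM in other Epi-like cells. All 8 genes stood higher in the members in all 4 arms, which the choice of cells fixes.

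A cell needed few transcripts to enter. The limit lay between 976.5 (the lowest member) and 976.3 (the highest other cell) CPM of the 8 genes in a cell in run 1, and between 1230 and 1229 in run 2. The median member stood at 1553 in run 1 and 1866 in run 2, and the median other Epi-like cell at 336 and 402. These medians rest on 57 and 35 UMIs of the 8 genes per member, against 9 and 6 UMIs per other cell. The share ran without a gap, and 443 members of run 2 lay within 20% above the limit, while 595 other cells lay within 20% below it. The class is thus a range of a score and its edge is a convention.

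Lineage genes were read next. POU5F1, the core pluripotency factor, is 1 of the genes by which cells were called Epi-like, so its level is a description that this choice fixes in part. It was at 793 to 894 CPM in G2/M Epi-like cells and 884 to 965 CPM in other Epi-like cells, against 116 to 362 CPM in the 457 TE-like cells of the same arms. The summed level of the other trophectoderm genes of the list, with GATA2, TFAP2A, KRT19 and CDX2, was 52.9 to 67.7 CPM in G2/M Epi-like cells and 59.9 to 74.0 CPM in other Epi-like cells. The summed level of primitive endoderm genes, with GATA6, GATA4 and SOX17, was 18.0 to 23.0 CPM in G2/M Epi-like cells and 19.0 to 23.6 CPM in other Epi-like cells. The ranges of the classes overlapped for both lists. The same limit on the 8 genes was passed by 15 of 56 TE-like cells at 4 mM and 4 of 18 at 0 mM in run 1, and by 36 of 175 at 4 mM and 39 of 208 at 0 mM in run 2, so a high share was also found outside Epi-like cells.

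**Figure D1:**
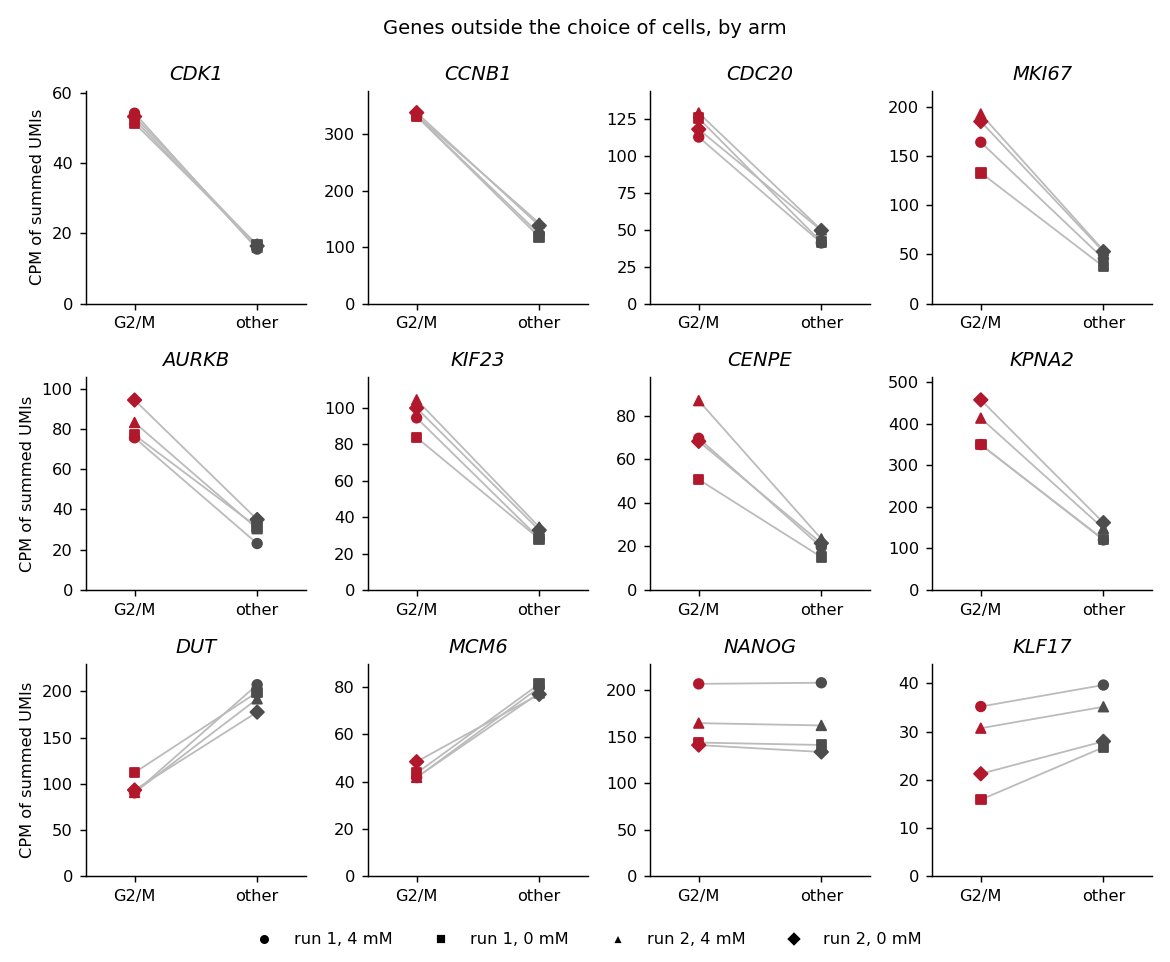
CPM of summed UMIs (vertical axes, from 0) for 12 genes that did not choose the cells, in G2/M Epi-like cells (red, left) and other Epi-like cells (grey, right), with 1 symbol per arm and a line joining the classes of an arm. The first 8 genes, CDK1 to KPNA2, are higher in G2/M Epi-like cells in every arm (CDK1 at 51.4 to 54.3 against 15.5 to 16.8 CPM), DUT and MCM6 are lower, and NANOG is about level.

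What else these cells carried was asked by comparing G2/M with other Epi-like cells over 8 sums with the arm in the model; CPM compare a gene between classes and not genes with each other. Of 14317 genes tested outside the genes that defined the classes, 2316 were higher in G2/M Epi-like cells (16.2% of genes tested) and 1978 were lower (13.8%), at a Benjamini-Hochberg adjusted p of 0.05 in edgeR's quasi-likelihood test (n = 4 arms). Most differences were small, with a median absolute log2 ratio of 0.24 among the genes called, a 1.18-fold difference. A log2 ratio above 1 was reached by 77 genes, and one below -1 by 79 genes. Classes ranked on the same cells had to differ in genes that follow the 8 genes through the cycle, so these calls describe the company of the 8 genes and are no check of the label. Counts fell to 1439 higher and 1117 lower without the 4 mM arm of run 2, and to 1538 and 1302 without the 0 mM arm of run 2.

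The kinase that starts mitosis and its cyclins were among the higher genes. CDK1 was at 54.3, 51.4, 52.4 and 53.3 CPM in G2/M Epi-like cells (run 1 at 4 mM, run 1 at 0 mM, run 2 at 4 mM, run 2 at 0 mM), against 15.5, 16.8, 16.1 and 16.4 CPM in other Epi-like cells of the same arms. The values hardly moved between runs or doses, and the fitted log2 ratio was 1.74 ± 0.048 (SE; 3.35-fold; adjusted p = 3.01e-37, edgeR). CCNB1, cyclin B1, was at 332, 332, 334 and 338 CPM in G2/M Epi-like cells, against 123, 118, 142 and 138 CPM in other Epi-like cells (log2 1.35 ± 0.026). CKS2, a small subunit of CDK complexes, was 2.72-fold higher, CCNF (cyclin F) 2.58-fold and GTSE1, a microtubule-binding regulator of G2, 2.83-fold. Of the 17 genes of cyclins, CDK1 and its control, 12 were higher and 1 was lower in G2/M Epi-like cells, with a median log2 ratio of 1.01 where the median of all genes tested was -0.0036. The lower one was CDC25A, a phosphatase that opens the way into S phase, at a log2 ratio of -0.28 ± 0.042. It turned to 0.16 when S phase Epi-like cells were left out of the other cells, an alternative chosen after seeing the data.

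The machinery that ends mitosis was higher as well. CDC20, the activator of the anaphase-promoting complex, was at 113, 126, 129 and 118 CPM in G2/M Epi-like cells, against 41.1, 41.8, 50.01 and 49.6 CPM in other Epi-like cells. Its range in the members lay far above that in the others, and the log2 ratio was 1.39 ± 0.035. UBE2S, which lengthens the ubiquitin chains of that complex, was at 851 to 956 CPM in G2/M Epi-like cells and 333 to 454 CPM in other Epi-like cells. PTTG1, securin, was 2.29-fold higher, and the checkpoint kinase gene BUB1 was 2.58-fold higher. Of 18 genes of the complex and of the spindle checkpoint, 12 were higher and 2 lower (median log2 0.75). Core subunits such as ANAPC11 (log2 0.03), CDC23 (0.03) and CDC16 (0.08) were not called, and the lower ones were ANAPC5 (-0.18) and FBXO5 (-0.15), the gene of EMI1, which inhibits the complex.

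All 4 genes of the chromosomal passenger complex, which corrects faulty attachments and guides cytokinesis, rose in G2/M Epi-like cells. AURKB, its kinase, was at 75.6, 77.0, 83.2 and 94.3 CPM in G2/M Epi-like cells, against 23.1, 31.3, 30.4 and 34.99 CPM in other Epi-like cells. The log2 ratios were 1.502 ± 0.041 for AURKB, 1.33 ± 0.055 for INCENP, 1.24 ± 0.030 for BIRC5 (survivin) and 1.23 ± 0.041 for CDCA8 (borealin). All 14 mitotic kinesin genes were higher too, with a median log2 ratio of 1.09. KIF23, a motor of the central spindle, was at 94.4, 83.6, 104 and 99.8 CPM in G2/M Epi-like cells, against 28.3, 28.1, 34.5 and 32.8 CPM in other Epi-like cells (3.14-fold). KIF20A was 3.24-fold higher at 25.9 to 29.9 CPM in the members, KIF18B 2.93-fold higher and KIF2C 2.74-fold higher.

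Kinetochore and centromere genes were split. CENPE, the kinesin that carries chromosomes to the spindle equator, was at 69.6, 50.7, 86.9 and 68.2 CPM in G2/M Epi-like cells, against 19.7, 15.1, 23.5 and 21.5 CPM in other Epi-like cells. Its log2 ratio of 1.82 ± 0.044 was the second highest of the genes at 20 CPM or more that did not choose the cells. HJURP, which loads the centromeric histone, was 3.08-fold higher, SGO2, which protects centromeric cohesion, 2.45-fold and NUF2, part of the outer kinetochore, 2.25-fold. Of 28 genes of the list, 22 were higher, 4 lower and 2 were not called, with a median log2 ratio of 0.37. The lower ones were ZWINT, CENPU, DSN1 and BOD1, at log2 ratios of -0.17, -0.18, -0.20 and -0.09.

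Of 28 spindle and centrosome genes, 25 were higher and 1 was lower (median log2 0.89). FAM83D, a spindle protein, was at 62.1, 58.5, 75.8 and 70.1 CPM in G2/M Epi-like cells, against 16.3, 18.4, 23.2 and 23.8 CPM in other Epi-like cells (3.28-fold). CKAP2L was 3.16-fold higher, CDCA3 2.84-fold and ARL6IP1, which shapes the endoplasmic reticulum, 2.82-fold at 316 to 380 CPM in the members. Outside the lists of spindle genes, KPNA2 (importin α1) was at 349.7, 349.7, 413 and 457 CPM in G2/M Epi-like cells, against 120.4, 122, 148 and 162 CPM in other Epi-like cells, a 2.89-fold difference. G2E3, a ubiquitin ligase named for its expression in G2/M, was 2.89-fold higher as well.

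MKI67 had the largest log2 ratio of the genes at 20 CPM or more that did not choose the cells. Its protein Ki-67 coats mitotic chromosomes and is the usual stain for cycling cells. It was at 164, 133, 193 and 185 CPM in G2/M Epi-like cells, against 45.7, 37.7, 54.1 and 52.95 CPM in other Epi-like cells (log2 1.85 ± 0.029; 3.62-fold; adjusted p = 1.67e-49, edgeR). Of 9 genes of condensin and the chromosome periphery, 7 were higher and 1 was lower. NCAPG was 2.04-fold and NCAPD2 1.87-fold higher, and both belong to condensin I. NCAPD3 of condensin II fell by 0.14 on the log2 scale, and NCAPH2 of condensin II was not called (0.03). Cohesin genes differed less, with 8 of 10 higher but a median log2 ratio of 0.22. RAD21 had the largest, at 0.40 ± 0.028.

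Of 10 cytokinesis genes, 8 were higher. RACGAP1 and ECT2, which switch on RhoA at the cell equator, were 2.93-fold and 2.01-fold higher, and DEPDC1B and the ring scaffold gene ANLN were 1.98-fold and 1.93-fold higher. RHOA itself was not called (log2 -0.05). Nuclear envelope genes, whose products are taken apart and rebuilt in mitosis, were higher in 8 of 10 cases (median log2 0.24). LBR, the lamin B receptor, was 1.77-fold higher, LMNA 1.54-fold and LMNB1 1.35-fold. SUN2 was 2.19-fold higher at no more than 1.62 CPM. Of 12 tubulin genes, 10 were higher. TUBA1C was at 972, 1119, 1025 and 1103 CPM in G2/M Epi-like cells, against 559.7, 726, 621 and 681 CPM in other Epi-like cells, and TUBB4B was 1.69-fold higher.

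**Figure D2:**
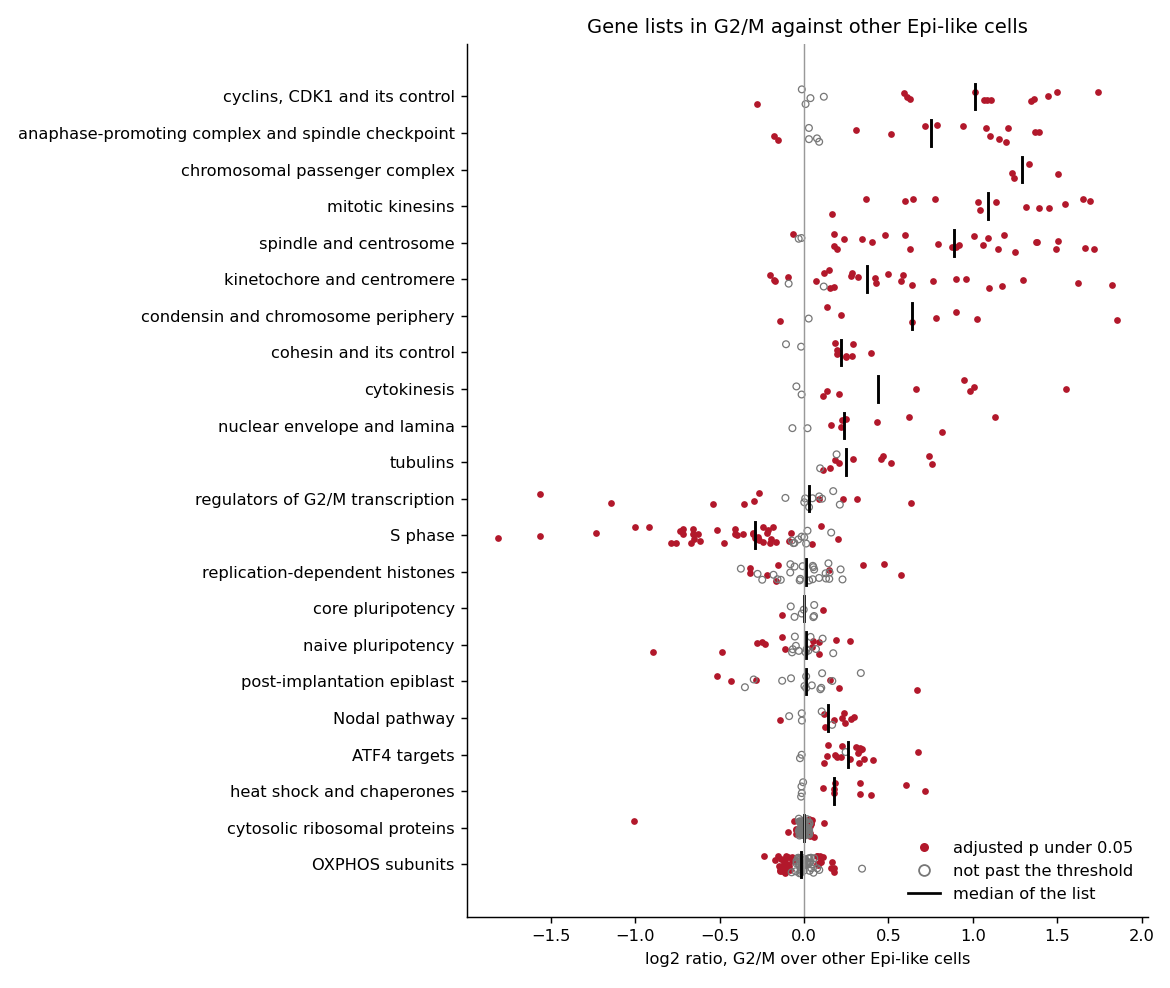
Log2 ratio of G2/M over other Epi-like cells (horizontal axis) for the genes of 22 lists, with 1 point per gene, red where the adjusted p was under 0.05 in edgeR and open otherwise, and a bar at the median of the list. The mitotic lists lie to the right of 0, the S phase list lies to the left with a median of -0.29, and the core pluripotency and ribosomal protein lists centre on 0.

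Because these genes moved together, their promoters were read from RefSeq (GRCh38.p14), 300 bases for each gene from 250 before to 50 after the start. A pair of motifs of late cell cycle promoters were searched on both strands, the cell cycle genes homology region (TTTGAA), to which the MuvB complex binds, and the CCAAT box (CCAAT), to which NF-Y binds. The motifs may overlap each other. Genes with more than 1 promoter entry were left out, which kept 48 of the 77 genes higher by a log2 ratio above 1. Of these 48, 64.6% held TTTGAA, against 33.0% of 100 genes called with ratios of 0.5 to 1, 9.74% of 308 genes at 0.25 to 0.5 and 8.38% of 5181 genes not called. Among all 22114 promoters with 1 entry the share was 16.0%. CCAAT was found in 70.8% of the 48, 50 of the 100, 40.3% and 36.7% of the same sets and in 36.2% of all promoters. More than 1 CCAAT was found in 24 of the 48 promoters and in 11.4% of all. These shares are a description of letters in a window, and no test was made. A match is not a bound site.

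The 200 bases before the start were marked for 8 of the genes with the largest log2 ratios. MKI67, KIF23, HJURP, KPNA2 and GTSE1 carry both motifs there, CDCA3 carries CCAAT alone, and CENPE and G2E3 carry neither. The 5 with both are shown for the place of the motifs, and CENPE as an example with neither. Capitals mark TTTGAA and CCAAT on either strand (TTCAAA and ATTGG on the other strand). They are read 5′ to 3′ on the strand of the gene. In GRCh38.p14 the windows lie at chr10:128126424-128126623 (minus strand) for MKI67, chr15:69414149-69414348 (plus strand) for KIF23, chr2:233854536-233854735 (minus strand) for HJURP, chr17:68035535-68035734 (plus strand) for KPNA2, chr22:46296670-46296869 (plus strand) for GTSE1 and chr4:103198344-103198543 (minus strand) for CENPE.
MKI67: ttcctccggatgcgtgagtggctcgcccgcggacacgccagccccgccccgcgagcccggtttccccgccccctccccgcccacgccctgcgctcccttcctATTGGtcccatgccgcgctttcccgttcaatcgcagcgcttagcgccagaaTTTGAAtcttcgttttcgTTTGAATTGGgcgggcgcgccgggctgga
KIF23: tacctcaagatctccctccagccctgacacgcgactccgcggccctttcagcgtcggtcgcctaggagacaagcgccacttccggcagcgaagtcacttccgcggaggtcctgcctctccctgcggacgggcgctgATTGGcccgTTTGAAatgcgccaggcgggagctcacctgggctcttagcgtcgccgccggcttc
HJURP: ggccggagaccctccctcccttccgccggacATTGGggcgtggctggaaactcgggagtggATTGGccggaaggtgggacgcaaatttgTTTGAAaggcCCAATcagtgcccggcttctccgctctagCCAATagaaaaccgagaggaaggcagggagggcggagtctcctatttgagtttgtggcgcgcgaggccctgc
KPNA2: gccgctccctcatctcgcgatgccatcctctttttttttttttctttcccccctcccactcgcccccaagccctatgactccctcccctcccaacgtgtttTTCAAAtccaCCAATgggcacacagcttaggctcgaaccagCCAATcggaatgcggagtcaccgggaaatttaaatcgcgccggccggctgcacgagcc
GTSE1: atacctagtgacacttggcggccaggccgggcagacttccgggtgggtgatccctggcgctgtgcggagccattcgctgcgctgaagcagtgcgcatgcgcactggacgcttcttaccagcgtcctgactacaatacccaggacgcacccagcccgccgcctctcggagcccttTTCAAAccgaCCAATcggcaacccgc
CENPE: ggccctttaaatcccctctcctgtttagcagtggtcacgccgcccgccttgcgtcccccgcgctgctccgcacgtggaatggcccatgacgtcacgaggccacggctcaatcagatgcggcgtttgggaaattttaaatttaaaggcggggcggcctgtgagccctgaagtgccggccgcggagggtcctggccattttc
In KIF23, HJURP, KPNA2 and GTSE1 a CCAAT or its reverse lies a few bases from TTTGAA or its reverse, and in MKI67 the second TTTGAA overlaps an ATTGG. The start used here is that of RefSeq. The GENCODE 44 annotation starts CENPE, KIF23, HJURP and KPNA2 inside the windows shown, at 103198445, 69414246, 233854566 and 68035636. Part of these windows therefore lies after the GENCODE start.

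Regulators of G2/M transcription were split. FOXM1, which acts on such promoters, was at 54.0, 44.03, 47.5 and 45.7 CPM in G2/M Epi-like cells, against 31.7, 28.4, 32.0 and 31.0 CPM in other Epi-like cells (log2 0.64 ± 0.045). Of 19 regulators, 4 were higher and 6 lower, with a median log2 ratio of 0.03. E2F8, E2F2 and E2F1 fell by 1.56, 1.14 and 0.54, of which E2F1 is an activator of S phase genes and E2F8 a repressor. The MuvB subunits LIN9, LIN37, LIN52 and LIN54 were not called.

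S phase genes moved the other way. Of 49 genes of that list, 37 were lower in G2/M Epi-like cells, 3 were higher and 9 were not called, with a median log2 ratio of -0.29. DUT, which removes dUTP, was at 90.4, 112, 90.7 and 93.3 CPM in G2/M Epi-like cells, against 207, 199, 192 and 178 CPM in other Epi-like cells (log2 -1.001 ± 0.031). MCM6, a subunit of the replicative helicase, was at 41.8, 43.7, 41.9 and 48.5 CPM in G2/M Epi-like cells, against 79.9, 81.3, 77.5 and 77.0 CPM in other Epi-like cells. CCNE2, cyclin E2, fell by 1.81 on the log2 scale at no more than 1.52 CPM in the members. ATAD2, CDC6, GINS2, UNG and MCM5 fell by 0.92, 0.76, 0.72, 0.72 and 0.67. Among the 3 that were higher were CDT1 (0.20) and NASP (0.05). S phase Epi-like cells were left out of the other cells in an alternative added after seeing the data. Then 20 were lower and 13 higher, and the median was -0.05. The cells left out were chosen by their share of this same list, so a shift in this direction was fixed by the choice.

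Inhibitors and cyclins of G1 were mixed, with 6 of 16 higher and 4 lower, where 16.2% of all genes tested were higher and 13.8% lower. CDKN1B (p27) and CDKN1C (p57) were 1.37-fold and 1.34-fold higher in G2/M Epi-like cells, while CCNE1 (cyclin E1) fell by 0.47. Of 20 genes of the DNA damage response, 5 were higher and 5 lower, with H2AFX (1.52-fold), MDC1 (1.48-fold) and CHEK2 (1.44-fold) at the top. With S phase cells left out of the other cells, 11 were higher and 0 lower (median log2 0.14), where all genes gave 1911 and 1885 of 14150. Set against S phase Epi-like cells, 3 of 17 genes of this list were higher and 10 lower. The choice of the cells left out thus favours a shift in this direction. Of 17 p53 targets, 3 were higher and 5 lower. BTG2, an antiproliferative gene, fell by 0.90, and ZMAT3 was at 17.5, 28.1, 29.5 and 30.6 CPM in G2/M Epi-like cells, against 37.6, 38.2, 45.4 and 48.8 CPM in other Epi-like cells. CDKN1A (p21) was not called (-0.08).

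Pluripotency genes were read beside the share of all genes tested, of which 16.2% were higher and 13.8% lower in G2/M Epi-like cells. NANOG was at 207, 144, 165 and 141 CPM in G2/M Epi-like cells, against 208, 141, 162 and 134 CPM in other Epi-like cells (log2 0.06 ± 0.026; adjusted p = 0.0685, edgeR). SOX2 had a log2 ratio of 0.05 ± 0.034 and was not called either. Of 9 core pluripotency genes tested, SALL4 was higher (0.11) and PRDM14 lower (-0.13). Naive pluripotency genes gave 6 higher and 7 lower of 25 (median 0.01), in this fit a larger share in either direction than over all genes. With other cells matched on UMIs, an alternative added after seeing the data, 2 were higher and 6 lower. All genes then gave 1556 and 1301 of 13306. With DESeq2 2 naive genes were higher and 6 lower, and with the arm left out of the model 1 and 0. MIR302CHG, the host transcript of the stem cell microRNA cluster, was lower in G2/M Epi-like cells, at 50.3, 34.0, 24.1 and 22.5 CPM, against 87.3, 60.6, 49.9 and 42.3 CPM in other Epi-like cells (log2 -0.90 ± 0.046). APELA, a peptide hormone of pluripotent cells, fell by 0.48, KLF17, a naive state transcription factor, by 0.25 and DPPA3 by 0.23, and UTF1 was 1.21-fold higher. Of 19 post-implantation genes, 3 were higher, led by SFRP2 (1.59-fold), and 3 lower, led by OTX2, which fell by 0.52.

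Some stress genes were higher in the members, and so was the content of the cells. Of 20 ATF4 targets, which answer to amino acid shortage, 17 were higher and none was lower (median log2 0.26). PSAT1, of serine synthesis, was at 264, 175, 199.8 and 191 CPM in G2/M Epi-like cells, against 219, 142, 155 and 135 CPM in other Epi-like cells (1.33-fold), and VLDLR was 1.59-fold, TRIB3 1.27-fold and SLC7A5 1.26-fold higher. Of 13 heat shock genes, 9 were higher, among them HSPA1A (1.64-fold) and BAG3 (1.52-fold). Members also held more UMIs per cell, with medians of 37115, 35995, 19136 and 19066.5 in G2/M Epi-like cells, against 29313.5, 27910, 14965 and 15140 in other Epi-like cells. The ratio was 1.27 ± 0.013 (SD, n = 4 arms). Other Epi-like cells were therefore matched 1 to 1 on UMIs within the arm, an alternative added after seeing the data. ATF4 targets then gave 16 of 20 higher (median 0.20) and heat shock genes 9 of 13. When the arm was left out of the model, 2 of 20 and 2 of 13 were higher, with medians of 0.28 and 0.18.

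Counts for genes of bulk metabolism depended on which cells stood on the other side. Over all genes tested 16.2% were higher and 13.8% lower, and with S phase cells left out of the other cells 1911 and 1885 of 14150 were. Of 82 cytosolic ribosomal protein genes, 10 were higher and 6 lower in G2/M Epi-like cells (median log2 -0.0026), and with S phase cells left out of the other cells 0 were higher and 59 lower (median -0.05). The lone point far to the left in the plot of lists is RPL10L, a close copy of RPL10, at no more than 1.11 CPM in the members. Of 77 genes of oxidative phosphorylation subunits, 12 were higher and 24 lower, with a median log2 ratio of -0.02, and without S phase cells 4 were higher and 37 lower (median -0.07). The mitochondrial share of UMIs was 1.01 ± 0.043 times that of other Epi-like cells (SD, n = 4 arms). Replication-dependent histone genes, most of whose mRNAs have no poly(A) tail and are captured poorly here, gave 4 higher and 5 lower of 34.

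**Figure D3:**
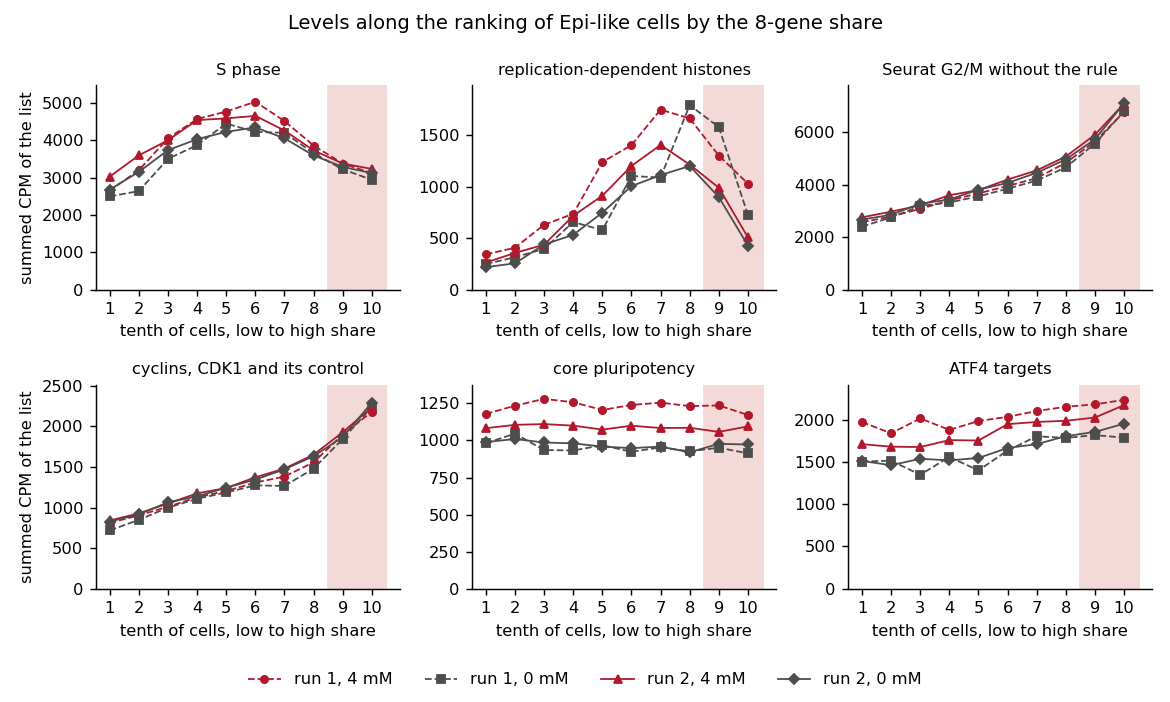
Summed CPM of 6 gene lists (vertical axes, from 0) in 10 bins of the Epi-like cells of a run ranked by the 8-gene share, from low to high, with 1 line per arm; the shaded bins 9 and 10 are about the G2/M Epi-like cells. S phase genes peak in bin 5 or 6, histone genes in bin 7 or 8, and G2/M genes climb to bin 10, while core pluripotency genes stay about level.

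Read along the ranking by the 8-gene share, cut into 10 bins of cells from low to high, the lists peaked in sequence. In run 2 at 4 mM the S phase list was at 3028 CPM in bin 1, 4657 CPM in bin 6 and 3234 CPM in bin 10. Replication-dependent histone genes peaked later, with 263 CPM in bin 1 of that arm, 1406 CPM in bin 7 and 507 CPM in bin 10. In the other arms S phase genes peaked in bin 5 or 6 and histone genes in bin 7 or 8. The G2/M list of Seurat without the 8 genes was higher in each bin than in the one before in all 4 arms, with 2753 CPM in bin 1, 5904 CPM in bin 9 and 7092 CPM in bin 10 of run 2 at 4 mM. Core pluripotency genes of that arm stayed between 1058 and 1111 CPM in every bin. The ranking used the same cells, so this is a description.

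G2/M Epi-like cells were next set against another class chosen by cycle genes, the 2047 S phase Epi-like cells. These were the cells in the top 20% of Epi-like cells in a run by the S phase list that were no members. Leaving out the genes of either choice, 2533 of 12884 genes were higher in G2/M Epi-like cells (19.7%) and 2569 were lower (19.9%). Both classes were chosen by cycle genes of the same cells, so genes that follow either choice had to differ. These calls describe the classes and are no check of their labels. CDC20 now led, with 113, 126, 129 and 118 CPM in G2/M Epi-like cells, against 25.7, 28.5, 32.0 and 30.8 CPM in S phase Epi-like cells (4.32-fold; log2 2.11 ± 0.047). PTTG1 was 3.75-fold higher, ARL6IP1 3.70-fold, CENPE 3.599-fold, KPNA2 3.56-fold, CKS2 3.41-fold, UBE2S 3.17-fold and CCNB1 3.00-fold. MKI67 was 2.70-fold and CDK1 2.39-fold higher. CDK1 was at 51.4 to 54.3 CPM in G2/M Epi-like cells, against 22.2 to 27.9 CPM in S phase Epi-like cells.

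Among the genes with the largest differences in the other direction were some of the passage from G1 to S phase. Genes that go with the S phase list had to stand lower in this comparison by the choice of cells. The list of G1 cyclins, kinases and inhibitors was split, with 4 of 14 higher and 5 lower (median log2 0.02). CCNE1 was at 42.3, 49.2, 46.5 and 46.8 CPM in G2/M Epi-like cells, against 103, 104, 104 and 106 CPM in S phase Epi-like cells (log2 -1.09 ± 0.044). E2F1 fell by 1.17, CDC25A by 1.09, and FBXO5 by 1.13. RBBP8 (CtIP), which trims broken DNA ends, fell by 1.18, USP37, a deubiquitinase, by 1.10, and H2AFY, a histone variant gene, by 1.18. Cytosolic ribosomal protein genes were higher in 75 of 81 cases, by a median log2 ratio of 0.13. ATF4 targets were higher in 19 of 20 cases (median 0.42). Median UMIs per cell were 32083, 30185, 15716.5 and 15953.5 in S phase Epi-like cells. Without the 4 mM arm of run 2, 1661 genes were lower.

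Whether the share of G2/M Epi-like cells depended on dose was asked by arm. It was 19.3% at 4 mM (194 of 1006 Epi-like cells; 95% Clopper-Pearson interval 16.9 to 21.9%) and 22.2% at 0 mM (80 of 360; 18.0 to 26.9%) in run 1. In run 2 it was 19.8% at 4 mM (1012 of 5101; 18.8 to 20.96%) and 20.2% at 0 mM (804 of 3978; 19.0 to 21.5%). The intervals cover the counting of cells alone, and they overlap in both runs. The differences, 4 mM minus 0 mM, were -2.94 and -0.37 percentage points. An exact two-sided permutation test over the 4 arms gave p = 0.333, which is the smallest p that 2 arms per dose allow. Because the limit took 20% of each run over both doses, the shares of a run are tied to each other. The sign was not stable. In run 2 the difference turned to 0.48 points when the cells were ranked by the G2/M genes of Seurat without the 8 genes, to 0.19 points with hashtags called by HTODemux and to 0.05 points with a stricter Epi-like rule, and it was -1.65 points on cells thinned to 5000 UMIs. In run 1 it turned to 0.38 points with 1 limit for both runs on thinned cells.

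**Figure D4:**
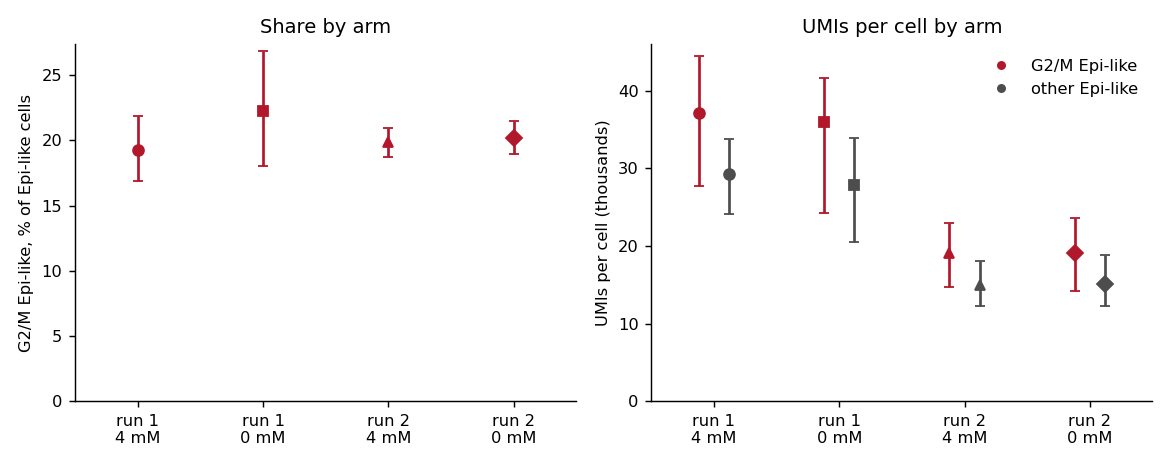
Left, share of Epi-like cells that were G2/M Epi-like cells in each arm (%), with exact 95% intervals; right, median UMIs per cell (axis in kilo-UMIs) in G2/M (red) and other Epi-like cells (grey) of each arm, with bars from the first to the third quartile. The 4 shares lie between 19.3 and 22.2% with overlapping intervals, and the members hold more UMIs in every arm.

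For reference, S phase Epi-like cells made up 21.8% at 4 mM and 14.4% at 0 mM of the Epi-like cells of run 1, and 21.5% at 4 mM and 17.1% at 0 mM of those of run 2. Only 1.03% and 1.25% of members in run 1 (4 mM and 0 mM) and 1.68% and 2.86% in run 2 were also in the top 20% by the S phase list. After every cell was thinned to 5000 UMIs, 1866 of the 2090 members (89.3%) were still chosen. Ties at the limit were all taken, so that choice was larger, with 2563 cells, of which 72.8% were members. Ranking by the G2/M genes of Seurat without the 8 genes took 2090 cells and kept 1635 of the members (78.2%).

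Within G2/M Epi-like cells, gene levels differed between doses 80 h after the compound had been removed. Of 13363 genes tested on 4 sums with the run in the model, 278 were higher at 4 mM (2.08%) and 170 lower (1.27%) by edgeR's quasi-likelihood test (n = 2 arms per dose). The fit has 1 residual degree of freedom and gives every gene the common spread, so disagreement between the runs of a single gene does not widen its error. With DESeq2's Wald test 28 genes were higher and 12 lower, and without cells above the 95th percentile of UMIs the counts were 101 and 49. Without any single arm, 1 of the doses keeps 1 culture. Joining in the sums of other Epi-like cells adds no culture, as they come from the same arms. Counts without single arms are therefore not given for dose. Among other Epi-like cells 1089 of 16424 genes were higher at 4 mM (6.63%) and 767 lower (4.67%); these were 8355 cells, against 2090 G2/M Epi-like cells. Of the 448 genes called in G2/M Epi-like cells, 379 were also called in other Epi-like cells, all in the same direction, which is 84.6% of the one list and 20.4% of the other.

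Mitotic genes were called with dose at about the share of all genes. Across the 138 genes of cyclins and CDK1, the anaphase-promoting complex, the passenger complex, kinesins, kinetochore, spindle, condensin, cohesin and cytokinesis, 4 were higher (2.90%) and 0 lower, against 2.08 and 1.27% of all genes tested, and the median log2 ratio was 0.04. KIF18A, a kinesin that damps chromosome movements, was at 23.5 and 20.8 CPM at 4 mM (run 1 and run 2), against 11.8 and 15.3 CPM at 0 mM (log2 0.57 ± 0.130). CENPE rose by 0.38 ± 0.085, CDC25A by 0.33 ± 0.098 and ASPM, a spindle pole gene linked to microcephaly, by 0.29 ± 0.075. CDK1 was at 54.3 and 52.4 CPM at 4 mM, against 51.4 and 53.3 CPM at 0 mM, and CCNB1 at 332 and 334 CPM at 4 mM, against 332 and 338 CPM at 0 mM. The other members of these lists were not called.

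Of 9 core pluripotency genes, 5 were higher at 4 mM and 0 lower, while 4 were not called. NANOG was at 207 and 165 CPM at 4 mM (run 1 and run 2), against 144 and 141 CPM at 0 mM, with no overlap of the doses (log2 0.34 ± 0.070; adjusted p = 0.000227, edgeR). SOX2 was at 113 and 93.9 CPM at 4 mM, against 76.2 and 76.6 CPM at 0 mM (log2 0.39 ± 0.080). LIN28A, an RNA-binding protein gene, rose by 0.41, SALL4 by 0.36 and the forkhead factor gene FOXD3 by 1.05. Its divergent neighbour FOXD3-AS1 was at 67.4 and 42.1 CPM at 4 mM, against 28.1 and 24.7 CPM at 0 mM. With DESeq2 2 of the 9 were called, and with the run left out of the model 0.

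Most naive genes were not called, with 3 of 25 higher and 3 lower (median log2 0.02). Both shares exceed the 2.08 and 1.27% of all genes tested. The summed level of the list was 5654 and 5850 CPM at 4 mM (run 1 and run 2), against 6621 and 6579 CPM at 0 mM. KLF17 was at 35.2 and 30.7 CPM at 4 mM, against 15.9 and 21.3 CPM at 0 mM (log2 0.67 ± 0.113), and KLF3 and ARGFX rose by 0.64 and 0.62. ALPG, the germ cell alkaline phosphatase, was at 339 and 430 CPM at 4 mM, against 734 and 633 CPM at 0 mM (log2 -0.81 ± 0.059). Of 19 post-implantation genes, 8 were higher and 1 lower, but 1 was higher with DESeq2 and 1 with the run left out of the model. THY1, a surface protein of primed cells, was at 44.8 and 31.4 CPM at 4 mM, against 12.6 and 16.7 CPM at 0 mM (log2 1.12 ± 0.116), and TCF7L1 was 1.74-fold and USP44 1.68-fold higher. Genes of naive and of later epiblast were thus both among those called higher by edgeR with the run in the model, but as many naive genes were called lower as higher. With DESeq2 0 naive genes were higher and 1 lower, and with the run left out of the model 0 and 1.

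Nodal signalling genes rose in 7 of 14 cases and ACVR1B, a type I receptor, fell by 0.63. With DESeq2 1 of the 14 was higher, and with the run left out of the model 3 were. NODAL, the ligand, was at 158 and 114 CPM at 4 mM, against 74.4 and 83.5 CPM at 0 mM (log2 0.67 ± 0.077). LEFTY1, its inhibitor and target, was at 66.5 and 49.3 CPM at 4 mM, against 21.8 and 31.6 CPM at 0 mM (log2 0.88 ± 0.099). LEFTY2 rose by 1.26 at no more than 5.99 CPM, and the feedback genes SMAD7 and PMEPA1 rose by 0.67 and 0.53. The change was larger in run 1 than in run 2 for NODAL (1.082 and 0.45) and LEFTY1 (1.59 and 0.63).

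Metabolic and stress genes were among the largest differences. PGM1, which links glycogen and glucose phosphates, was at 32.6 and 25.3 CPM at 4 mM, against 11.1 and 12.2 CPM at 0 mM (log2 1.16 ± 0.128). FBP1, an enzyme of gluconeogenesis, was at 48.0 and 38.8 CPM at 4 mM, against 20.7 and 18.7 CPM at 0 mM (log2 1.10 ± 0.110). CHAC1, which degrades glutathione, was at 30.1 and 36.8 CPM at 4 mM, against 16.7 and 17.2 CPM at 0 mM. DDIT4, an inhibitor of mTORC1, was 1.85-fold, SLC7A11, the cystine importer, 1.47-fold and VLDLR 1.58-fold higher, and of 20 ATF4 targets 8 rose and 1, GDF15, fell by 0.46. The 8 became 1 with DESeq2, 3 with the run left out of the model and 4 without cells above the 95th percentile of UMIs. The transaminase gene BCAT1 rose by 0.47. The transcription factor gene BCL11A was 1.67-fold higher. Of heat shock genes, HSPA8 was 1.27-fold higher and HSPA1A fell by 0.43.

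Among the genes that fell, NEAT1, the RNA that builds paraspeckles, was at 149 and 228 CPM at 4 mM, against 237 and 339 CPM at 0 mM (log2 -0.61 ± 0.067). MALAT1, another nuclear RNA, fell by 0.30. C15orf61, HPDL, FXYD6, SAC3D1, HES4, APELA and TJP3, a tight junction gene, fell too, with log2 ratios between -0.64 (C15orf61) and -0.49 (TJP3). CCND1, cyclin D1, was at 110 and 154 CPM at 4 mM, against 163 and 195 CPM at 0 mM (log2 -0.43 ± 0.071), while CCND2, cyclin D2, was at 115 and 103 CPM at 4 mM, against 46.6 and 81.4 CPM at 0 mM (log2 0.61 ± 0.081). The 2 D cyclins thus moved in opposite directions.

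**Figure D5:**
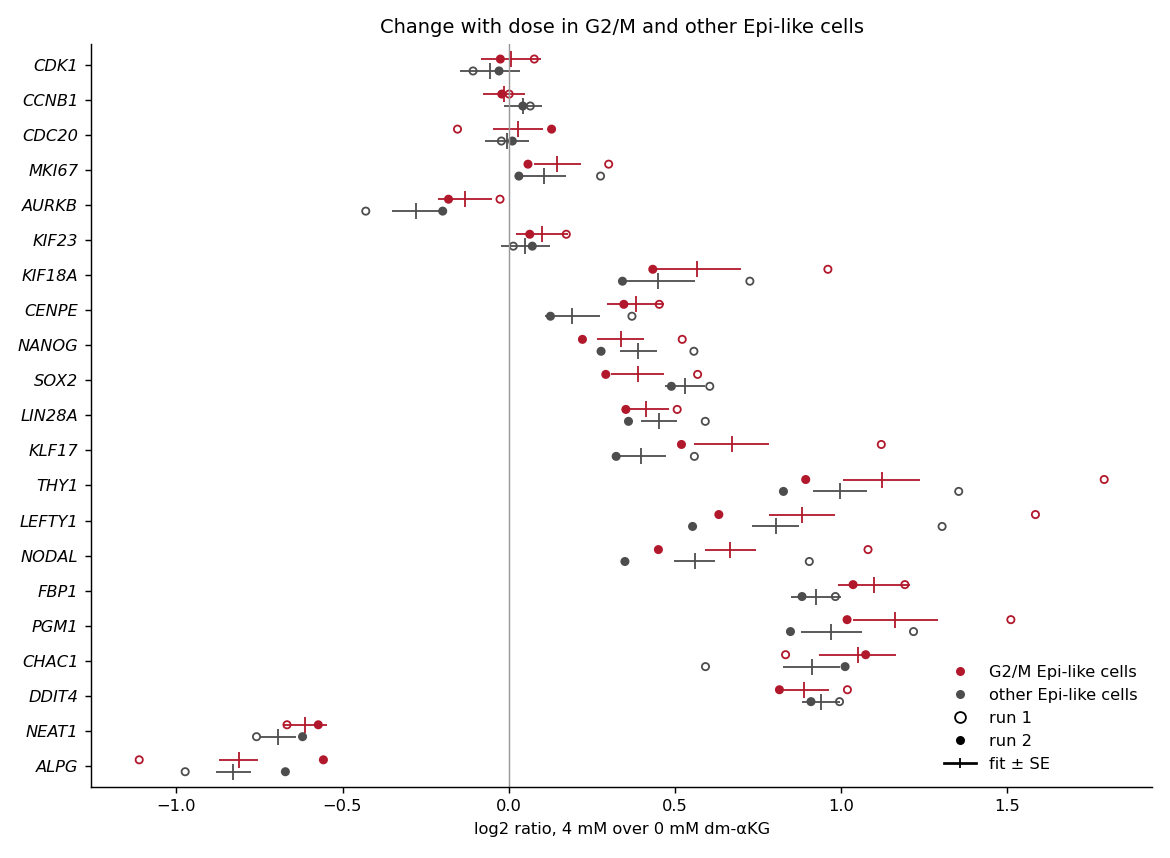
Change with dose as a log2 ratio, 4 mM over 0 mM (horizontal axis), for 21 genes in G2/M Epi-like cells (red, upper) and other Epi-like cells (grey, lower), with open points for run 1, filled points for run 2 and a tick with a bar for the fit ± SE. The fits of CDK1, CCNB1 and CDC20 lie near 0, NANOG to DDIT4 lie to the right in both classes and both runs, and NEAT1 and ALPG lie to the left.

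For the genes given here the changes with dose were of like size in other Epi-like cells. THY1 changed by 1.12 ± 0.116 in G2/M Epi-like cells and by 1.00 ± 0.081 in other Epi-like cells, NANOG by 0.34 ± 0.070 and 0.39 ± 0.056, LEFTY1 by 0.88 ± 0.099 and 0.80 ± 0.072, FBP1 by 1.10 ± 0.110 and 0.93 ± 0.074, and ALPG by -0.81 ± 0.059 and -0.83 ± 0.052. Both classes come from the same arms. The difference itself was tested as an interaction of class and dose over the 8 sums, and 7 of 15053 genes passed (0.0465%), with 678 at an unadjusted p under 0.05. A p that misses the threshold does not show that the classes respond alike.

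The 7 genes differed by small amounts. UBE2S, the mitotic one among them, had log2 changes of -0.16 and -0.04 (run 1 and run 2) in G2/M Epi-like cells and -0.38 and -0.14 in other Epi-like cells, a difference of 0.17 ± 0.035 (adjusted p = 0.0268, edgeR). PGK1, of glycolysis, changed by 0.38 and 0.43 in G2/M Epi-like cells and 0.18 and 0.29 in other Epi-like cells. BNIP3, a mitophagy receptor that like PGK1 answers to low oxygen, changed by 0.36 and 0.45 in G2/M Epi-like cells and by 0.14 and 0.32 in other Epi-like cells. The chaperone gene HSPA5 changed by 0.20 and 0.27 in G2/M Epi-like cells and 0.15 and 0.04 in other Epi-like cells. The metallothionein genes MT1G and MT1H, which bind zinc and are close copies, differed by -0.22 ± 0.047 and -0.30 ± 0.067, and PDPN (podoplanin) by -0.29 ± 0.068. MT1H was at 189.5 and 69.1 CPM in G2/M Epi-like cells at 4 mM, against 139.9 and 55.8 CPM at 0 mM. DESeq2 called 0 of these interactions (30 genes at an unadjusted p under 0.05) and edgeR without a filter on low counts called 0 (751 genes). Counts without single arms are not given for the interaction either, as 1 of the doses then keeps 1 culture.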

How the data were processed

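Single cells of H9 blastoids were captured in 2 droplet runs with a hashtag library each. The deposited counts are whole UMIs per gene and barcode in filtered matrices, which the authors made with bcl2fastq 2.20.0.422 and Cell Ranger 6.1.2 on GRCh38 and read into Seurat 4.3.0. They also deposited hashtag counts, and hashtags were assigned to doses by the deposited hashtag names. No doublet caller was run: barcodes with several hashtags were removed, and leaving out cells above the 95th percentile of UMIs was an alternative.

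Sums of UMIs over the cells of a class in an arm entered edgeR 4.0.16 (R 4.3.3, limma 3.58.1) with TMM scaling and filterByExpr, and its quasi-likelihood test was adjusted by Benjamini-Hochberg over all genes tested (threshold 0.05). Models held the arm and the class, or the run and the dose, and the 17 genes that define the classes were not counted as calls. CPM were not length-scaled. Alternatives included DESeq2 1.42.0, HTODemux of Seurat 5.3.0, other limits, thinned cells and leaving out each arm. The steps were tested on simulated counts. Nothing in the labels says that arms were independent derivations. In comparisons of classes the arm is in the model, so p-values rest on how the difference between classes varied among these cultures. They do not measure the spread between cultures. By dose, p-values rest on a spread shared by the genes.

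Named genes were the 10 with the largest and the 10 with the smallest log2 ratio among those called at 20 CPM or more with the same sign in every arm or run, and up to 4 genes from each list with the largest changes, with other list genes given by values. A few genes that this rule takes are not reported here. The 7 interaction genes were the ones called. The cells, the lists and the genes were chosen with earlier results of these data known. Promoters were taken from RefSeq (GRCh38.p14).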

Additional observations from a re-analysis of the deposited data

Results flagged for a closer look

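Of the results above, 7 stood out because the change with dose itself differed between G2/M Epi-like and other Epi-like cells, by the interaction of class and dose in edgeR's quasi-likelihood test over 8 sums (n = 4 arms). The difference in log2 change, G2/M minus other Epi-like cells, was 0.17 for UBE2S, 0.18 for PGK1, 0.17 for BNIP3 and 0.19 for HSPA5. It was -0.22 for MT1G, -0.30 for MT1H and -0.29 for PDPN. In run 1 and run 2 the signs matched for each gene, and the adjusted p lay between 0.0268 and 0.0477. None was called by DESeq2. With 2 arms per dose, no arm could be examined for a gap to the others of its group.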

How the results depend on the processing

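Between G2/M and other Epi-like cells, DESeq2 called 1197 genes higher and 754 lower, the fit with no replicate block (the arm left out) 361 and 244, and other cells matched on UMIs left 1301 lower. Leaving out single arms gave 1439 to 2266 higher and 1117 to 1930 lower. Against S phase Epi-like cells, DESeq2 gave 1455 and 1057, no replicate block 966 and 1019, and single arms left out 1836 to 2613 and 1661 to 2658. With dose in G2/M Epi-like cells, DESeq2 gave 28 higher and 12 lower, no replicate block (the run left out) 20 and 4, a limit at the top 10% 132 and 81, at the top 30% 435 and 302, and cells above the 95th percentile of UMIs left out 101 and 49. Leaving out single arms, in fits that share the spread with other Epi-like cells and assume that a lone sum varies like the rest, gave 336 to 481 and 166 to 367. The interaction gave 0 genes with DESeq2 and 0 with no filter on low counts. In run 1 the difference in share moved to -1.05 points when ranked by the G2/M genes of Seurat and to 0.375 points with 1 limit for both runs. The UMI ratio moved to 1.32 at the top 10% and 1.24 at the top 30%. CDC25A reversed to 0.16 without S phase cells. The cause of these shifts was not tested. Pairing rests on the arm, which both classes share, and on the run. With 1 residual degree of freedom by dose and 274 members in run 1, depth limits what can be called among genes of few UMIs.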

Other observations

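Some gene groups not described above also differed between G2/M and other Epi-like cells. Of 15 immediate early genes, which respond to stimuli within minutes, 9 were higher in G2/M Epi-like cells, 1 was lower and 5 were not called (median log2 0.15). FOSB, an AP-1 subunit, and DUSP1, a phosphatase of MAP kinases, had log2 ratios of 0.79 and 0.50. Without the replicate block, none of the 15 was called. Of 14 Nodal pathway genes, 8 were higher and 1 lower, but 4 were higher with DESeq2 and 0 without the replicate block. NODAL was at 158, 74.4, 114 and 83.5 CPM in G2/M Epi-like cells (run 1 at 4 mM, run 1 at 0 mM, run 2 at 4 mM, run 2 at 0 mM), against 127, 67.4, 97.9 and 76.7 CPM in other Epi-like cells. PMEPA1, a feedback inhibitor of that pathway, was 1.23-fold higher.

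Replication-dependent histone genes gave 0 of 33 called with dose within G2/M Epi-like cells (1974 genes of all tested were at an unadjusted p under 0.05 in edgeR), and 20 of 34 were higher at 4 mM within other Epi-like cells. Of all genes tested, 2.08% were higher and 1.27% lower with dose in the 2090 G2/M Epi-like cells. In the 8355 other Epi-like cells 6.63% were higher and 4.67% lower, so the counts of the classes are not on a like footing. The median log2 ratios of the histone genes were 0.20 and 0.35, and no histone gene was called for a difference between the classes.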
